A study of Homo sapiens with 35 samples.

Results

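The comparison asked whether the compound BRD, given together with CHIR99021 (CHIR), changed gene expression in differentiating H1 cells relative to CHIR without BRD, in a direction and size common to 6 h and 24 h. H1 is an established human embryonic stem cell line. The members are 8 bulk RNA-seq libraries of the 35 samples in the series, chosen by their treatment and time labels: 4 of BRD with CHIR (BRD+CHIR; 2 at 6 h and 2 at 24 h) and 4 of CHIR alone (2 at 6 h and 2 at 24 h). Both groups carry CHIR, which the protocol gives at 3 µM, and they differ by label in BRD. BRD is known here only by that name, and its dose is not given in the sources used here. Cells were unsorted, and no label says whether the replicates of a group came from separate cultures, so p-values measure the spread between these libraries, which may be technical. Libraries of Activin A with CHIR (AA+CHIR; 100 ng/ml Activin A) and of a compound named JNJ with CHIR (JNJ+CHIR), 2 at each time in each, were used for comparison, with 2 untreated libraries at 6 h for levels only.

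CHIR inhibits the kinase GSK3, which stabilises beta-catenin and turns on Wnt target genes. In embryonic stem cells, Wnt activity together with Nodal or Activin signalling through SMAD2 and SMAD3 drives entry into the primitive streak, the transient structure from which mesoderm and definitive endoderm arise. MIXL1, TBXT (Brachyury) and EOMES are transcription factors of that stage. CER1, LEFTY1 and LEFTY2 are secreted inhibitors induced by Nodal signalling, and SOX17, FOXA2 and GATA6 are transcription factors of endoderm. A protocol with CHIR and Activin A supplies both signals, and in the BRD+CHIR arm BRD is listed where Activin A would otherwise stand.

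The libraries held between 12981466 and 23433374 counts in BRD+CHIR and between 12957040 and 29627091 in CHIR. Levels are CPM, counts scaled to a common library total with TMM factors. On log2 CPM over 11265 genes, replicates correlated at r = 0.964 to 0.987, BRD+CHIR and CHIR libraries of the same time at 0.962 to 0.986, and libraries of different times at 0.826 to 0.841. The BRD+CHIR and CHIR libraries of a time had correlations in about the range of the replicates. The streak genes MIXL1 and TBXT were low at 6 h and high at 24 h in both treatments, SOX17 had 0 counts in all 8 libraries, and CXCR4, a surface marker of definitive endoderm, did not exceed 0.474 CPM. The source label calls the cells definitive endoderm, whose defining gene SOX17 was thus not detected in these 8 libraries. In AA+CHIR at 24 h SOX17 had 1.61 and 0.379 CPM. The 6 h and 24 h libraries also carry different series numbers in their titles, 33 and 38, so time and series cannot be told apart.

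No gene passed the test between BRD+CHIR and CHIR when the times were combined. Each gene was fitted with time as a block and tested with edgeR's quasi-likelihood F-test (two-sided) with Benjamini-Hochberg adjustment, and 0 of 15114 genes (0%) were called at a false discovery rate of 0.05. The smallest adjusted p was 0.994. At an unadjusted p under 0.05 there were 593 genes (3.92%), 268 higher and 325 lower in BRD+CHIR. DESeq2 called 1 gene and limma-voom 7. The median log2 change over all genes was -0.005.

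The width of the intervals says how large a common change could have gone unseen. Of the 11265 genes with a mean of at least 5 CPM, 93.8% had a 95% interval that lay inside a 2-fold change in either direction, and 71.6% inside 1.5-fold. Of the 4120 genes of at least 50 CPM, 99.8% and 99.0% did. The half-width of the interval had a median of 0.30 on the log2 scale at 5 CPM and above, and 0.18 at 50 CPM and above. For most well-measured genes the data thus bound a common effect of BRD below 2-fold, and for weakly expressed genes they do not.

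**Figure D1:**
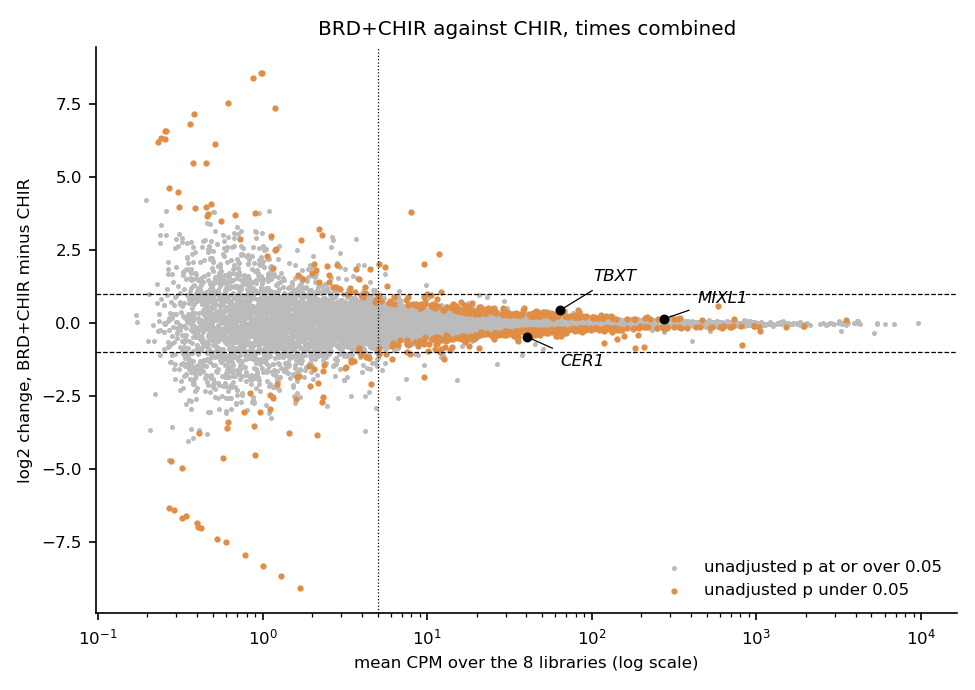
Log2 change of BRD+CHIR over CHIR with the times combined (y axis) against mean CPM over the 8 libraries (x axis, log scale), 1 point per gene, with an unadjusted p under 0.05 in orange, dashed lines at 2-fold and a dotted line at 5 CPM. None of the 15114 genes was called, and the spread of the points narrows as the level increases.

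The streak factors MIXL1, TBXT and EOMES differed far more between the times than between the treatments. MIXL1 (chromosome 1, 226223618 to 226227054, plus strand, GRCh38) had 4.38 and 5.60 CPM in BRD+CHIR at 6 h, against 6.63 and 4.39 CPM in CHIR, and 565 and 602 CPM in BRD+CHIR at 24 h, against 503 and 496 CPM in CHIR. The groups overlapped at 6 h, and at 24 h both BRD+CHIR libraries were the higher. Of all genes tested, 33.9% had no overlap between the treatments at 24 h, counting both directions. For MIXL1 the combined log2 change was 0.14 ± 0.10 (SE, 95% interval -0.07 to 0.35, edgeR adjusted p = 0.994).

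TBXT (chromosome 6, 166157656 to 166168700, minus strand) showed the same arrangement with a wider gap at 24 h. It had 3.02 and 4.46 CPM in BRD+CHIR at 6 h, against 4.31 and 1.91 CPM in CHIR, and 134 and 157 CPM in BRD+CHIR at 24 h, against 105 and 100.9 CPM in CHIR. Its log2 change was 0.43 ± 0.16 (SE, 0.09 to 0.78), with an unadjusted p of 0.0167 and an edgeR adjusted p of 0.994. At 24 h alone it was 0.50 ± 0.19 (SE, edgeR adjusted p = 0.43). EOMES overlapped between the treatments at both times, with 34.5 and 45.5 CPM in BRD+CHIR at 6 h, against 44.2 and 47.0 CPM in CHIR, and 328 and 304 CPM in BRD+CHIR at 24 h, against 313 and 304 CPM in CHIR.

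Among the Nodal ligands and inhibitors, CER1 (chromosome 9, 14719724 to 14722717, minus strand) had 4.09 and 7.08 CPM in BRD+CHIR at 6 h, against 6.47 and 6.54 CPM in CHIR, and 69.5 and 48.0 CPM in BRD+CHIR at 24 h, against 98.9 and 82.8 CPM in CHIR. At 24 h both BRD+CHIR libraries were below both CHIR libraries, and at 6 h the groups overlapped. The share of all genes with no overlap at 24 h was 33.9%, counting both directions. For CER1 the log2 change was -0.48 ± 0.18 (SE, -0.85 to -0.10), with an unadjusted p of 0.0166 and an edgeR adjusted p of 0.994. NODAL, the ligand itself, was lower in both BRD+CHIR libraries at both times. It had 77.0 and 81.4 CPM in BRD+CHIR at 6 h, against 106 and 88.2 CPM in CHIR, and 170 and 180 CPM in BRD+CHIR at 24 h, against 185 and 199 CPM in CHIR. The log2 change was -0.21 ± 0.08 (SE, -0.37 to -0.05, edgeR adjusted p = 0.994). Among all genes tested, 428 (2.83%) were lower in this ordered way and 397 (2.63%) higher. LEFTY1 had 21.7 and 23.1 CPM in BRD+CHIR at 24 h, against 28.96 and 28.98 CPM in CHIR, with a combined log2 change of -0.23 (-0.61 to 0.16). LEFTY2 and GSC rested on few counts at 6 h, and their combined changes of -0.32 and -0.07 moved to the other sign in some of the alternatives tried.

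**Figure D2:**
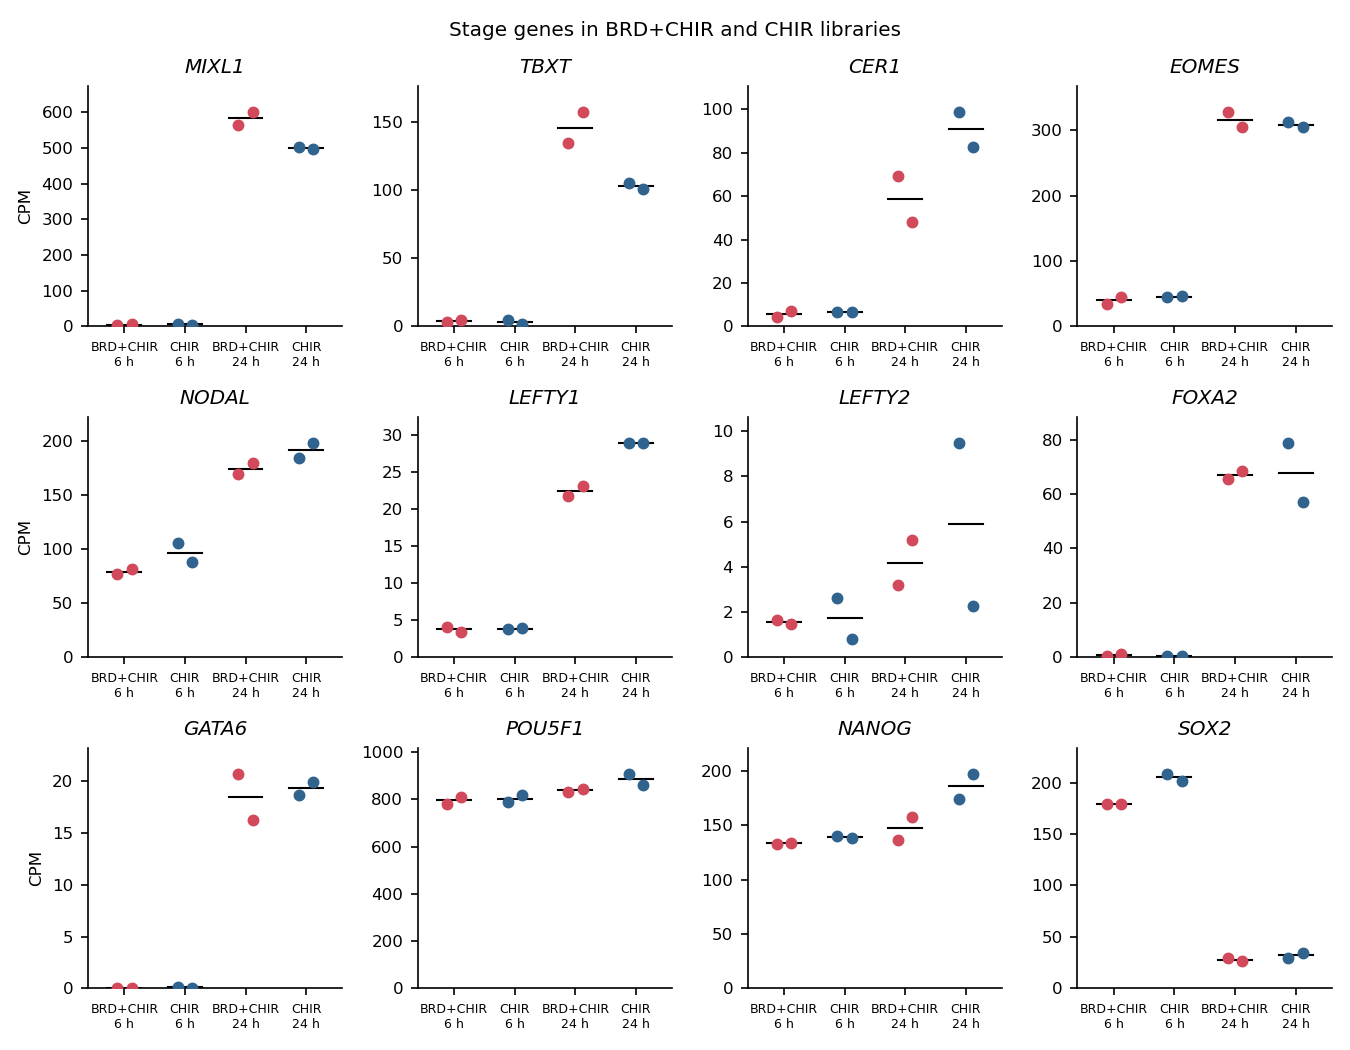
CPM of 12 stage genes in each library (points; bars are means of 2), with BRD+CHIR left of CHIR at 6 h and at 24 h. MIXL1 at 24 h sits at 565 and 602 CPM in BRD+CHIR against 503 and 496 CPM in CHIR, CER1 at 69.5 and 48.0 against 98.9 and 82.8 CPM, and the step between times exceeds the step between treatments for both.

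The endoderm factors overlapped between the treatments at 24 h and were near 0 at 6 h. FOXA2 had 65.7 and 68.6 CPM in BRD+CHIR, against 78.9 and 56.9 CPM in CHIR, and GATA6 had 20.7 and 16.3 CPM in BRD+CHIR, against 18.7 and 19.9 CPM in CHIR. Among the pluripotency factors, POU5F1 (OCT4) stayed between 781 and 842 CPM in BRD+CHIR and between 789 and 908 CPM in CHIR, with a log2 change of -0.05 ± 0.04 (SE, -0.14 to 0.04). NANOG had 133 and 134 CPM in BRD+CHIR at 6 h, against 140 and 138 CPM in CHIR, and 137 and 158 CPM in BRD+CHIR at 24 h, against 174 and 198 CPM in CHIR. SOX2 had 179 and 179 CPM in BRD+CHIR at 6 h, against 209 and 202 CPM in CHIR, and 29.1 and 27.0 CPM in BRD+CHIR at 24 h, against 29.3 and 34.7 CPM in CHIR. Both were lower in every BRD+CHIR library at both times. Over all genes tested, 428 (2.83%) were lower in this ordered way and 397 (2.63%) higher. For SOX2 at 24 h the gap was narrow, from 29.1 CPM in BRD+CHIR to 29.3 CPM in CHIR. The log2 changes were -0.20 ± 0.08 for NANOG and -0.19 ± 0.07 for SOX2 (SE, edgeR adjusted p = 0.994 for each), and neither passed the test.

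Of the Wnt-induced genes among the stage genes, AXIN2 and SP5 differed by less than 1.5-fold between the treatments at each time. AXIN2, a scaffold of the beta-catenin destruction complex that Wnt induces, had 71.8 to 93.9 CPM in BRD+CHIR and 73.8 to 83.1 CPM in CHIR, with a log2 change of 0.03 (-0.18 to 0.24). SP5, a Wnt-induced transcription factor, had 51.2 and 61.9 CPM in BRD+CHIR at 6 h, against 74.6 and 75.9 CPM in CHIR, and 152 and 156 CPM in BRD+CHIR at 24 h, against 139 and 139 CPM in CHIR. It lay below CHIR at 6 h and above it at 24 h, and the difference between the times was not called (edgeR adjusted p = 0.762). Of the 15 stage genes tested, 1 higher and 4 lower had an unadjusted edgeR p under 0.05, against 3.92% of all genes, and none was called. With the times combined, 14 of the 15 had a 95% interval inside 2-fold. The exception was LEFTY2. For genes near 0 at 6 h, such as GSC and GATA6, this interval rests mainly on the 24 h counts. At 6 h alone the log2 change was 1.86 (0.56 to 3.16) for GSC and -3.74 (-7.87 to 0.39) for GATA6. Both rested on few counts, and neither was called.

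**Figure D3:**
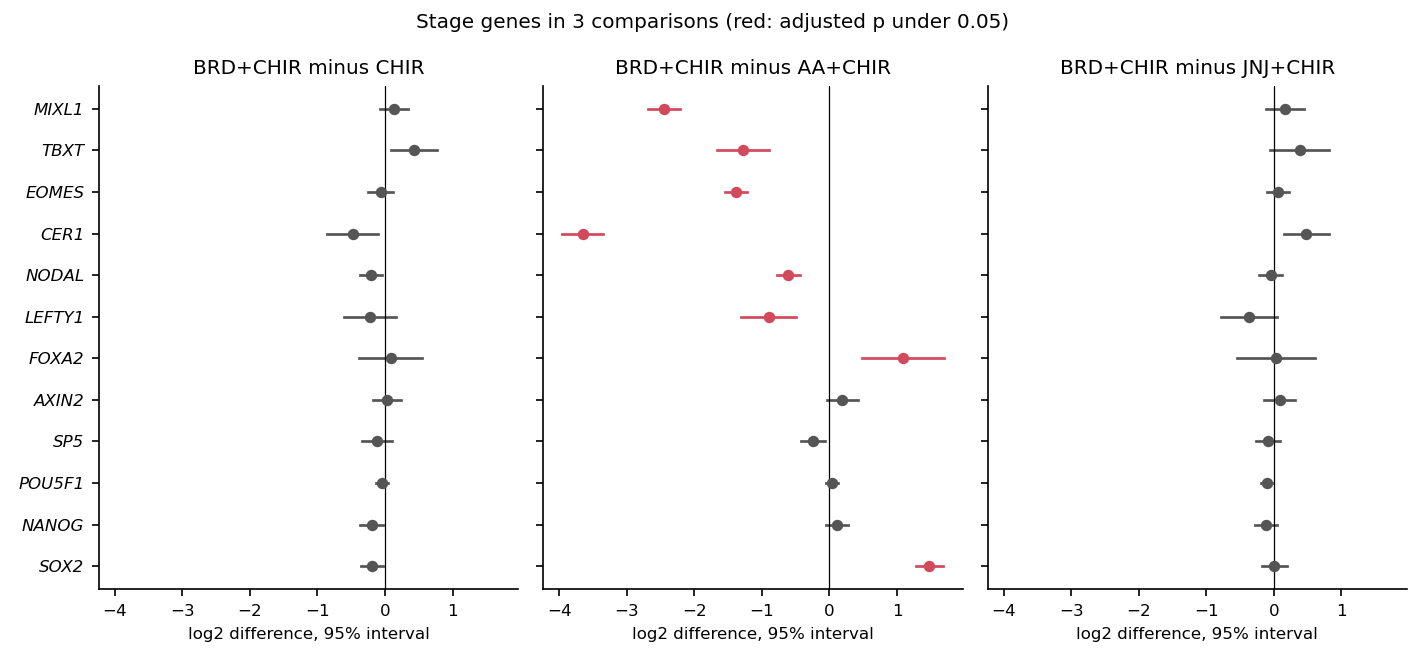
Log2 differences with 95% intervals for 12 stage genes in 3 comparisons, BRD+CHIR over CHIR, over AA+CHIR and over JNJ+CHIR, with red marking an adjusted p under 0.05. BRD+CHIR over CHIR runs from -0.48 (CER1) to 0.43 (TBXT), with MIXL1 at 0.14, and none was called. The unadjusted intervals of TBXT, CER1, NODAL, NANOG and SOX2 exclude 0 there. Over AA+CHIR MIXL1 is at -2.45 and CER1 at -3.65.

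Gene groups were described over 23 lists with 374 distinct genes, of which 355 were in the table and 332 were tested. None of the 332 was called with the times combined (0% of all genes), 150 had a log2 change above 0 and 182 below 0, and 276 had an interval inside 2-fold. Among all genes tested, 51.2% lay below 0. The lists were chosen with earlier results of these data known.

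Of the Wnt targets and feedback genes, 14 of 20 tested lay above 0 with a median log2 change of 0.08, none passed the test, and 12 had an interval inside 2-fold. The member with the smallest p, TNFRSF19, a receptor of the TNF receptor family, ran against the median and rested on few counts. It had 0.296 and 0 CPM in BRD+CHIR at 6 h, against 0.719 and 0.718 CPM in CHIR, and 0.563 and 0.142 CPM in BRD+CHIR at 24 h, against 2.18 and 2.10 CPM in CHIR (log2 change -2.38 ± 1.07, SE, edgeR adjusted p = 0.994). ZNRF3, an E3 ligase that removes Frizzled receptors from the surface, had 34.1 and 29.5 CPM in BRD+CHIR at 6 h, against 27.6 and 22.7 CPM in CHIR, and 39.9 and 36.9 CPM in BRD+CHIR at 24 h, against 33.6 and 32.9 CPM in CHIR (log2 change 0.27, edgeR adjusted p = 0.994). Of the Nodal and Activin targets, 16 of 20 lay below 0 with a median of -0.10, and none passed the test. Of 20 receptors, co-receptors and SMADs of the same pathway, 13 lay above 0 with a median of 0.03. TDGF1 (Cripto), the Nodal co-receptor, had 455 and 429 CPM in BRD+CHIR at 24 h, against 596 and 527 CPM in CHIR, while the groups overlapped at 6 h (combined log2 change -0.15, edgeR adjusted p = 0.994).

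The lineage lists gave the same count of 0 calls. Primitive streak genes had a median log2 change of -0.08 over 18 tested, definitive endoderm genes -0.13 over 14, mesoderm genes -0.10 over 10, pluripotency genes -0.04 over 20 and neural genes -0.08 over 12, against -0.005 for all genes. Summed over the list, streak genes came to 184 and 210 CPM in BRD+CHIR at 6 h, against 255 and 234 CPM in CHIR, and to 1955 and 1944 CPM in BRD+CHIR at 24 h, against 1882 and 1793 CPM in CHIR. The sum was thus lower in BRD+CHIR at 6 h and higher at 24 h. Of all single genes tested, 32.7% had no overlap at 6 h and 33.9% at 24 h, counting both directions. KDR, a receptor of early mesoderm and endothelium, had 189 and 197 CPM in BRD+CHIR at 24 h, against 221 and 247 CPM in CHIR (combined log2 change -0.18, edgeR adjusted p = 0.994). In bulk RNA, fewer cells of a type and less RNA per cell cannot be told apart.

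Markers of other cell types were summed in the same way. The fibroblast markers summed to 252 to 323 CPM in BRD+CHIR and 274 to 318 CPM in CHIR, with 7 of 10 in the table. Blood and endothelium markers summed to 17.2 to 39.4 CPM in BRD+CHIR and 17.8 to 33.03 CPM in CHIR, and trophectoderm and amnion markers to 8.94 to 26.3 CPM in BRD+CHIR and 11.5 to 26.0 CPM in CHIR. None of the markers of these 3 lists that were in the table was at 0 in all 8 libraries. At 24 h the sums of the fibroblast list (263 and 252 CPM in BRD+CHIR, against 274 and 282 CPM in CHIR), the neural list (320 and 332 CPM in BRD+CHIR, against 373 and 356 CPM in CHIR) and the mesoderm list (228 and 230 CPM in BRD+CHIR, against 259 and 288 CPM in CHIR) were lower in both BRD+CHIR libraries. Most of the mesoderm sum at 24 h came from a single member, KDR, with 189 and 197 CPM in BRD+CHIR, against 221 and 247 CPM in CHIR. The pluripotency sum was lower too, with 5548 and 5456 CPM in BRD+CHIR, against 6064 and 5962 CPM in CHIR. The mitochondrial genome sum was higher, with 30782 and 29072 CPM in BRD+CHIR, against 28684 and 27902 CPM in CHIR, as was the streak sum given above. Of all single genes tested, 33.9% had no overlap at 24 h, counting both directions. The part of these lists in any result was not tested. Mitochondrial transcripts made up 3.15% to 4.57% of counts in BRD+CHIR and 2.98% to 4.66% in CHIR.

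Signalling, metabolic and stress lists were tested in the same fit. Of the 19 FGF and ERK targets, 10 lay above 0 with a median log2 change of 0.02, and all 19 had intervals inside 2-fold. ETV1, a transcription factor induced by ERK, had 60.0 and 66.3 CPM in BRD+CHIR at 6 h, against 58.5 and 61.4 CPM in CHIR, and 73.4 and 77.6 CPM in BRD+CHIR at 24 h, against 55.3 and 49.9 CPM in CHIR (log2 change 0.30 ± 0.11, SE, edgeR adjusted p = 0.994). Glycolysis and hypoxia genes lay below 0 in 20 of 25, with a median of only -0.04. Of the 3 stress lists, 16 of 19 unfolded-protein and integrated-stress genes, 16 of 22 p53 targets and 6 of 12 heat shock genes lay below 0, at medians of -0.06, -0.05 and 0.001. PSAT1, an enzyme of serine synthesis and a target of the integrated stress response, had 397 and 392 CPM in BRD+CHIR at 6 h, against 420 and 406 CPM in CHIR, and 127 and 134 CPM in BRD+CHIR at 24 h, against 168 and 160 CPM in CHIR. Its log2 change was -0.20 ± 0.06 (SE, edgeR adjusted p = 0.994), and HSPA1B, an inducible heat shock protein and the lowest member of its list, lay at -0.33 ± 0.12 (SE, edgeR adjusted p = 0.994). Intervals lay inside 2-fold for 24 of 24 cholesterol synthesis genes (median 0.01), 24 of 24 G2 and mitosis genes (0.01), 21 of 22 S phase genes (0.02), 12 of 12 heat shock genes and 13 of 13 genes of the mitochondrial genome (0.008).

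Because no gene was called, the genes whose libraries did not overlap at either time, and in the same direction, are given as a description with no claim of change. There were 825 such genes (5.46%), against 32.7% with no overlap at 6 h and 33.9% at 24 h. GRB7, an adaptor protein that binds receptor tyrosine kinases, had the smallest p among the higher ones. It had 23.8 and 25.0 CPM in BRD+CHIR at 6 h, against 15.3 and 14.5 CPM in CHIR, and 14.9 and 16.5 CPM in BRD+CHIR at 24 h, against 9.42 and 9.73 CPM in CHIR, a log2 change of 0.71 ± 0.16 (SE, 0.37 to 1.05, edgeR adjusted p = 0.994). MRPS14, a protein of the mitochondrial ribosome, had 23.2 and 20.2 CPM in BRD+CHIR at 6 h, against 16.4 and 15.1 CPM in CHIR, and 16.8 and 20.3 CPM in BRD+CHIR at 24 h, against 12.4 and 8.89 CPM in CHIR (log2 change 0.63). BICDL2 had 22.3 and 14.9 CPM in BRD+CHIR at 6 h, against 12.7 and 11.7 CPM in CHIR, and 11.3 and 15.2 CPM in BRD+CHIR at 24 h, against 3.40 and 5.60 CPM in CHIR (log2 change 1.08). H3C4 (a histone H3, 0.46), NBEAL1 (0.55), WDCP (0.55), ZNF75A (0.61) and ARNT2 (0.50), a partner of bHLH-PAS transcription factors, followed on the log2 scale.

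Among the lower ones, TNNI3, the cardiac troponin I, had 26.9 and 27.6 CPM in BRD+CHIR at 6 h, against 40.7 and 28.8 CPM in CHIR, and 6.04 and 4.84 CPM in BRD+CHIR at 24 h, against 14.5 and 15.0 CPM in CHIR (log2 change -0.87 ± 0.22, SE, edgeR adjusted p = 0.994). VASP, an actin-binding protein, had 160 and 163 CPM in BRD+CHIR at 6 h, against 169 and 178 CPM in CHIR, and 80.7 and 84.3 CPM in BRD+CHIR at 24 h, against 116 and 115 CPM in CHIR. FZD5, a Frizzled receptor for Wnt, had 25.7 and 30.2 CPM in BRD+CHIR at 6 h, against 33.5 and 37.4 CPM in CHIR, and 53.5 and 57.2 CPM in BRD+CHIR at 24 h, against 75.1 and 69.5 CPM in CHIR. Their log2 changes were -0.30 and -0.37 (edgeR adjusted p = 0.994 for both). LRRC37A (-0.88), GSTM2 (-1.06), MTLN (-0.83), C5orf63 (-0.56) and TRDN (-0.25) completed the set. LRRC37A, GSTM2 and H3C4 belong to gene families with similar copies, and whether the counting split reads between copies was not tested.

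The times were then tested apart, in a fit with a mean for each of the 4 groups. At 6 h 0 genes (0%) were called, with 203 (1.34%) at an unadjusted p under 0.05. A fit on the 4 libraries of 6 h alone called 10 of 14171 (0.0706%), limma-voom called 14 (0.0926%) and DESeq2 called 6. At 24 h 14 genes (0.0926%) were called, 7 higher and 7 lower in BRD+CHIR (0.0463% each), with 1523 (10.1%) at an unadjusted p under 0.05. A fit on the 4 libraries of 24 h alone and limma-voom each called 0 there, and DESeq2 called 154. The fit with 4 group means shares its spread across times. Its common biological coefficient of variation was 0.287, against 0.377 for the 24 h libraries alone. The difference between the 24 h and the 6 h effect was called for 7 genes (0.0463%), 4 positive (0.0265%) and 3 negative (0.0198%), all of which were also called at 24 h. At an unadjusted p under 0.05 there were 865 (5.72%). Over the 11265 genes of at least 5 CPM, the log2 changes at 6 h and at 24 h, which share no library, correlated across genes at r = 0.0136, and 49.4% had the same sign. Genes are not independent replicates, and this is a description.

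**Figure D4:**
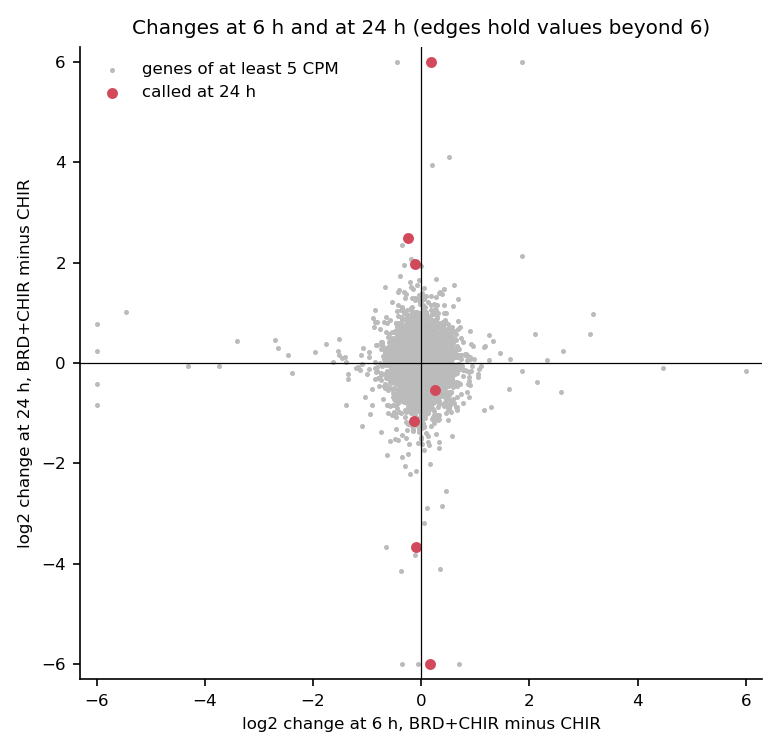
Log2 change of BRD+CHIR over CHIR at 6 h (x axis) against 24 h (y axis) for genes of at least 5 CPM, with genes called at 24 h in red and values beyond 6 drawn at the edges. The cloud has no slope (r = 0.0136), and 7 of the 14 genes called at 24 h reach 5 CPM and are shown.

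Of the 14 genes called at 24 h, 8 had 0 counts in both libraries of 1 group, 7 carried the name of a read-through transcript or a clone, and 11 had at least 1 of these features. The remaining 3 were SELENOT, CBS and C17orf49. SELENOT, a selenoprotein of the endoplasmic reticulum (chromosome 3, 150602875 to 150630445, plus strand), fell at 24 h to 8.94 and 8.11 CPM in BRD+CHIR, against 17.9 and 20.1 CPM in CHIR. At 6 h it had 54.6 and 54.5 CPM in BRD+CHIR, against 60.0 and 59.0 CPM in CHIR. The log2 change at 24 h was -1.15 ± 0.17 (SE, edgeR adjusted p = 0.0285), and with a library left out the adjusted p ran from 0.0238 to 0.104, staying under 0.05 only without replicate 1 or replicate 2 of CHIR at 24 h. Its locus overlaps SERP1 on the opposite strand, and no source used here says whether the counting used strand. Any part of this overlap in the SELENOT values was not tested.

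CBS, the enzyme that makes cystathionine from homocysteine (chromosome 21, 43053191 to 43076943, minus strand), had 230 and 233 CPM in BRD+CHIR at 6 h, against 202 and 187 CPM in CHIR, and 172 and 165 CPM in BRD+CHIR at 24 h, against 247 and 243 CPM in CHIR. It was called lower at 24 h (log2 change -0.54 ± 0.08, SE, edgeR adjusted p = 0.0285), and with a library left out the adjusted p ran from 0.0422 to 0.0952, staying under 0.05 only without replicate 2 of CHIR at 24 h. The near-identical symbol CBSL ran the other way, with 194 and 215 CPM in BRD+CHIR at 6 h, against 238 and 257 CPM in CHIR, and 175 and 147 CPM in BRD+CHIR at 24 h, against 115 and 123 CPM in CHIR. Summed, CBS and CBSL came to 347 and 312 CPM in BRD+CHIR at 24 h, against 362 and 366 CPM in CHIR, a log2 change of -0.14 ± 0.07 (SE, edgeR adjusted p = 0.534).

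RPL17-C18orf32, a read-through symbol across the ribosomal protein gene RPL17 and its neighbour (chromosome 18, 49481681 to 49492479, minus strand), had 1088 and 1125 CPM in BRD+CHIR at 6 h, against 1191 and 1208 CPM in CHIR, and 19.6 and 13.1 CPM in BRD+CHIR at 24 h, against 4.23 and 4.23 CPM in CHIR. It was called higher at 24 h (log2 change 1.98 ± 0.15, SE, edgeR adjusted p = 0.000242). With RPL17 and C18orf32 added, the locus had 863 and 860 CPM in BRD+CHIR at 24 h, against 946 and 790 CPM in CHIR, a log2 change of -0.01 ± 0.07 (SE, edgeR adjusted p = 0.982). C17orf49, which shares a locus with RNASEK, had 12.6 and 6.26 CPM in BRD+CHIR at 24 h, against 0.961 and 2.45 CPM in CHIR (edgeR adjusted p = 0.0494), while the read-through symbol RNASEK-C17orf49 had 3.74 and 4.41 CPM in BRD+CHIR, against 12.0 and 10.4 CPM in CHIR. The sum of these 2 symbols and RNASEK had a log2 change of -0.13 at 24 h (edgeR adjusted p = 0.805).

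The same split was seen between SMIM11A and SMIM11B, which are near-identical. SMIM11A had 11.3 and 12.6 CPM in BRD+CHIR at 6 h, against 1.28 and 1.36 CPM in CHIR, and SMIM11B had 0.889 and 1.204 CPM in BRD+CHIR at 6 h, against 10.2 and 12.1 CPM in CHIR. SMIM11A alone had a combined log2 change of 2.03, and the sum of both symbols 0.36 ± 0.24 (SE, edgeR adjusted p = 0.994). U2AF1L5, a copy of the splicing factor gene U2AF1, had a combined log2 change of 0.45, and the sum of both -0.02 ± 0.06 (SE, edgeR adjusted p = 0.996).

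For the symbols with an empty group, only a bound on the fold exists, set from a floor of 3 counts over the group. At 24 h GET1-SH3BGR had 3.58 and 3.42 CPM in BRD+CHIR and 0 in both CHIR libraries, at least 70.2-fold higher, and CENPVL2 had 3.50 and 4.34 CPM in BRD+CHIR and 0 in both CHIR libraries, at least 75.8-fold higher. GOLGA6D had 0 in both BRD+CHIR libraries and 5.35 and 3.32 CPM in CHIR, at least 56.8-fold lower, and ARHGAP9 had 0 in both BRD+CHIR libraries and 1.76 and 1.36 CPM in CHIR, at least 20.4-fold lower. Each was called at 24 h (edgeR adjusted p between 0.0140 and 0.0357). With GET1 and SH3BGR added to GET1-SH3BGR, the log2 change at 24 h was -0.46 ± 0.23 (SE, edgeR adjusted p = 0.532). For CENPVL2 and CENPVL3 summed it was 0.28 ± 0.44 (SE, edgeR adjusted p = 0.884). Replicates of other arms also differed in this way. GET1-SH3BGR had 0 and 244 counts in AA+CHIR at 24 h, and GOLGA6D 103 and 0 counts in JNJ+CHIR at 6 h. Counts of 0 in 1 library and at least 50 in its replicate were seen for 112 genes in BRD+CHIR and 156 in CHIR at 24 h, against 11 and 16 at 6 h. Without such genes 17 were called at 24 h, among them all 14 reported and, in addition, TNNI3, CENPS-CORT and AC022826.2. Summing the symbol groups left 8 genes called at 24 h, and keeping only genes with counts in all 8 libraries left 6. These 3 settings were chosen after the data were seen.

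**Figure D5:**
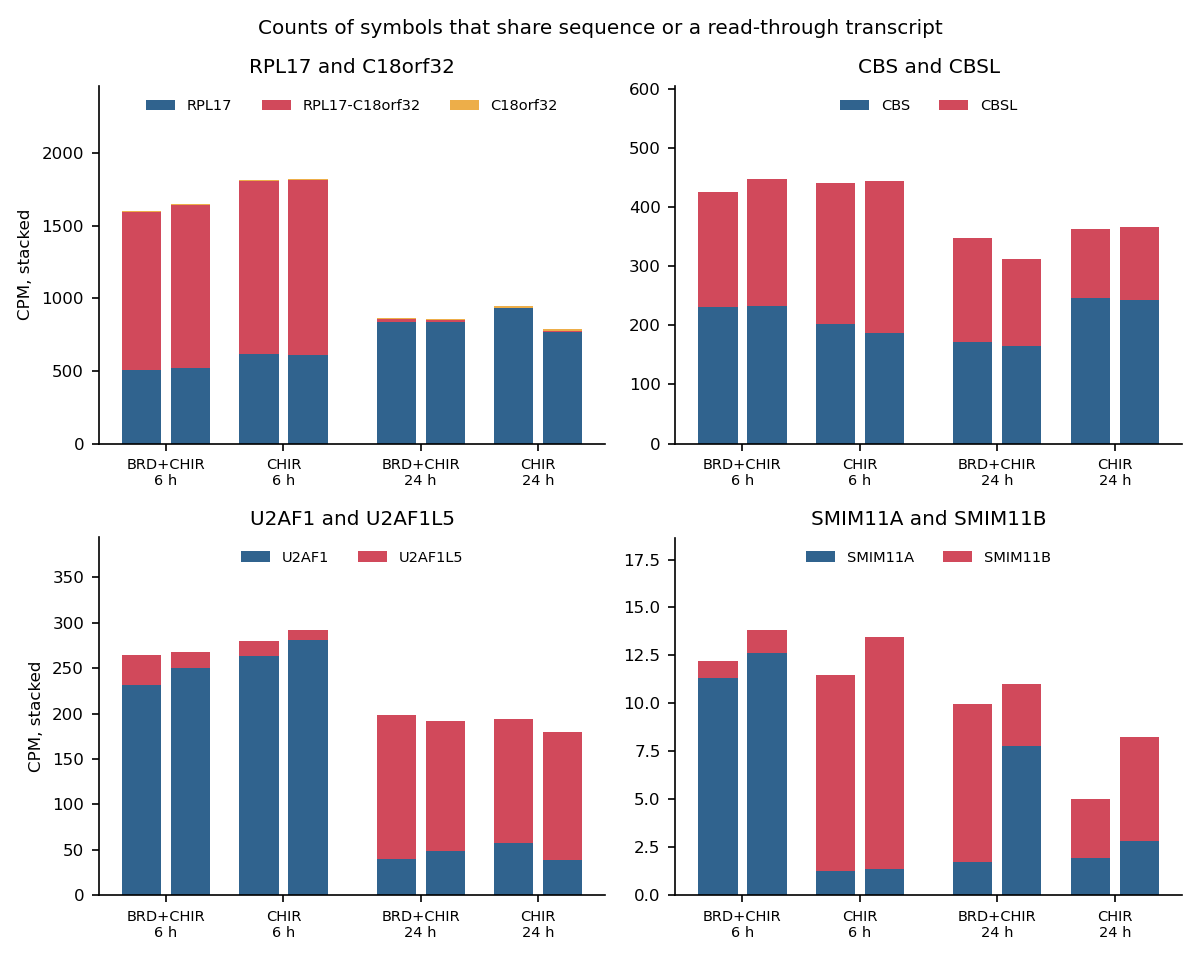
CPM of symbols that share a locus or a near-identical sequence, stacked for each of the 8 libraries, BRD+CHIR left of CHIR at each time. CBS and CBSL differ in opposite directions at 24 h while their sum stays at 347 and 312 CPM in BRD+CHIR against 362 and 366 CPM in CHIR, and the RPL17 locus at 863 and 860 against 946 and 790 CPM.

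In the fit with the times combined, limma-voom called 7 genes, all lower in BRD+CHIR (0.0463%). TUBD1 and ELAPOR1, which were among them, are described here and were chosen after their values were seen. TUBD1, a tubulin, had 239 and 578 CPM in BRD+CHIR at 6 h, against 1384 and 951 CPM in CHIR, and 34.0 and 29.8 CPM in BRD+CHIR at 24 h, against 21.4 and 24.4 CPM in CHIR. ELAPOR1 had 560 and 1199 CPM in BRD+CHIR at 6 h, against 2745 and 1863 CPM in CHIR, and 30.8 and 48.3 CPM in BRD+CHIR at 24 h, against 32.96 and 43.4 CPM in CHIR. At 24 h TUBD1 was higher in both BRD+CHIR libraries and ELAPOR1 overlapped, so the lower values lay at 6 h. Among the libraries of 6 h, both genes were lowest in the first of BRD+CHIR and highest in an untreated library. The untreated pair itself differed widely, with 451 and 2135 CPM of TUBD1 and 1042 and 4226 CPM of ELAPOR1.

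Activin A with CHIR served as the arm in which streak genes were induced by a known ligand. In a fit of 16 libraries, BRD+CHIR differed from AA+CHIR at 477 of 15682 genes (3.04%), 244 higher (1.56%) and 233 lower (1.49%), and AA+CHIR differed from CHIR at 443 (2.82%) and JNJ+CHIR from CHIR at 36 (0.23%). BRD+CHIR against CHIR gave 0 calls in that fit. These comparisons share libraries. MIXL1 reached 85.2 and 83.3 CPM in AA+CHIR at 6 h and 1016 and 1040 CPM at 24 h, well above the BRD+CHIR values given above, so that BRD+CHIR minus AA+CHIR was -2.45 ± 0.11 on the log2 scale (SE, edgeR adjusted p = 3.88e-11). CER1 reached 41.9 and 42.7 CPM in AA+CHIR at 6 h and 1135 and 1298 CPM at 24 h, a difference of -3.65 ± 0.14 (SE, edgeR adjusted p = 8.81e-12). TBXT (-1.28 ± 0.18, SE, edgeR adjusted p = 0.000207) and EOMES (-1.39 ± 0.08, SE, edgeR adjusted p = 8.75e-10) were also lower in BRD+CHIR. Of 16 stage genes, 7 were called lower in BRD+CHIR and 2 higher. The endoderm factor FOXA2 was called higher (1.09 ± 0.29, SE, edgeR adjusted p = 0.045). At 24 h alone FOXA2 differed by 1.92 ± 0.26 (SE, edgeR adjusted p = 8.50e-05). GATA6 went the other way at 24 h (-3.16 ± 0.25, SE, edgeR adjusted p = 6.76e-07).

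By list, 11 of 20 primitive streak genes were called lower in BRD+CHIR than in AA+CHIR and 0 higher (median log2 difference -1.41, against -0.005 for all genes), and 11 of 20 Nodal and Activin targets lower and 1 higher (median -0.75). The definitive endoderm list was mixed, with 2 of 17 genes called higher and 3 lower (median -0.40). Of 20 pluripotency genes, 5 were higher and 0 lower, SOX2 among them at 1.48 ± 0.10 (SE, edgeR adjusted p = 7.92e-09). Over all genes, the shares to set beside these list counts were 1.56% called higher and 1.49% called lower. HAS2, a hyaluronan synthase, lay at -2.79 and DKK4, a secreted Wnt inhibitor, at -2.09 (edgeR adjusted p of 3.88e-11 and 5.61e-05). Of 22 Wnt targets and feedback genes, 6 were called lower and 0 higher (median -0.34), against 1.49% lower over all genes. AXIN2 (0.19, edgeR adjusted p = 0.475) and SP5 (-0.24, edgeR adjusted p = 0.143) were not called. A difference averaged over times can hide opposite signs. LEFTY1 was -3.32 at 6 h and 1.52 at 24 h, with 44.3 and 31.6 CPM in AA+CHIR at 6 h and 6.57 and 9.01 CPM at 24 h.

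JNJ+CHIR, another arm with a compound in place of Activin A, differed from BRD+CHIR at 34 genes (0.217%), 6 higher (0.0383%) and 28 lower (0.179%) in BRD+CHIR. The doses of BRD and JNJ are not given in the sources used here, so whether they were matched is not known. None of 16 stage genes was called: MIXL1 differed by 0.16 (-0.12 to 0.45), TBXT by 0.38 (-0.06 to 0.81) and CER1 by 0.48 (0.15 to 0.82, edgeR adjusted p = 0.44) on the log2 scale. The glycolysis and hypoxia list stood out by its count, with 13 of 25 genes lower in BRD+CHIR and 0 higher (median log2 difference -0.47, against 0.005 for all genes).

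BNIP3, a mitophagy receptor induced by hypoxia, had 105 and 107 CPM in BRD+CHIR at 6 h, against 163 and 172 CPM in JNJ+CHIR, and 325 and 317 CPM in BRD+CHIR at 24 h, against 677 and 726 CPM in JNJ+CHIR (log2 difference -0.89 ± 0.06, SE, edgeR adjusted p = 1.64e-07). DDIT4 (-1.12 ± 0.11), an inhibitor of mTORC1, HK2 (-0.82 ± 0.08), the first enzyme of glycolysis, and LDHA (-0.60 ± 0.06), lactate dehydrogenase, were lower too (SE, edgeR adjusted p between 1.29e-05 and 3.17e-05). In BRD+CHIR against CHIR the same genes lay at -0.04 for BNIP3, -0.11 for DDIT4, -0.10 for HK2 and -0.05 for LDHA, with a list median of -0.04. DKK4 was higher in BRD+CHIR, with 31.5 and 39.5 CPM at 24 h, against 9.33 and 6.09 CPM in JNJ+CHIR (log2 difference 1.79 ± 0.28, SE, edgeR adjusted p = 0.00375).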

How the data were processed

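Bulk libraries were stranded total RNA from H1 cells, read single-end at 85 bases, per the labels' protocols. The table deposited by the authors holds expected counts that need not be whole, over 16103 genes and 30 libraries, and 0 per-sample columns were left unassigned. The submitters' processing notes list Salmon 1.4.0, limma 3.48.1, edgeR 3.34.0 and GRCh38, with no roles. Filters applied before deposit are not given in the sources used here.

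Expected counts were rounded to whole counts. Groups came from the treatment and time labels. Genes passing filterByExpr (minimum count 10) went into edgeR 4.0.16 under R 4.3.3, with TMM scaling and a two-sided quasi-likelihood F-test, and Benjamini-Hochberg adjustment over all genes tested. The comparison with times combined used time as an additive block on 8 libraries (5 residual degrees of freedom). The times apart used 4 group means (4), and AA+CHIR and JNJ+CHIR were compared in 16 libraries with 8 group means (8), averaged over times. Standard errors were taken as the size of the log2 change over the square root of F, and intervals are 95%. Levels are CPM, TMM-scaled, over 18 libraries. They compare libraries, not genes. An ordered gene has both BRD+CHIR libraries on the same side of both CHIR libraries at both times. A group at 0 was set to 3 counts, summed over its libraries, to bound a fold, which covers counting error only.

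Named were 17 stage genes, any gene called with times combined, the 8 ordered genes with the smallest p in each direction (at least 5 CPM), the 4 with the smallest p in each direction at 24 h and between times, up to 2 members per list, and for AA+CHIR and JNJ+CHIR the 4 called with the smallest p in each direction. Clone identifiers were left out, and part of the set is described in the text. Members and lists were chosen with earlier results of these data known. Coordinates are from GENCODE 29 on GRCh38. Genes of the lists that are not in the table were not analysed here, and a withheld item is not reported here. The fits were also run on simulated counts, whose outcome is not given here and on which no result above rests. Alternatives were limma-voom (limma 3.58.1), DESeq2 1.42.0, other scaling, other designs and leaving out each library, with summed symbols, genes with counts in all 8 libraries and, for the times apart, no genes split between replicates (0 in 1, at least 50 counts in the other) added after the data were seen.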

Additional observations from a re-analysis of the deposited data

Results flagged for a closer look

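For 4 named genes the effect of BRD on CHIR-treated cells differed between 24 h and 6 h in edgeR's test of that difference (Benjamini-Hochberg adjusted over 15114 genes). RPL17-C18orf32 had a log2 effect of 1.98 at 24 h and -0.12 at 6 h, with an adjusted p of 0.00127 for the difference. With RPL17 and C18orf32 added to it, the adjusted p was 0.912. CBS had -0.54 at 24 h and 0.25 at 6 h, with an adjusted p of 0.0317, and 0.940 for CBS and CBSL summed. GET1-SH3BGR, with 0 counts in both CHIR libraries of 24 h, had an adjusted p of 0.0373, and its locus summed 0.890. GOLGA6D, with 0 counts in both BRD+CHIR libraries of 24 h, had an adjusted p of 0.0499, and no sum was formed for it. The sums were chosen after the data were seen. What sets the split of reads between such symbols was not tested. The difference between times cannot be told apart from the difference between the title series 33 and 38.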

How the results depend on the processing

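With the times combined, 20 settings were tried in place of or beside the reported one, and the count of 0 called genes became 3 with 4 group means averaged over times, 1 with DESeq2 and 7 with limma-voom, and ran from 0 to 1 with a library left out (1 without replicate 2 of BRD+CHIR at 24 h). The share of genes with an interval inside 2-fold was 89.9% to 93.1% with a library left out and 70.8% with no minimum level. At 6 h the count of 0 became 6 (DESeq2), 14 (limma-voom) and 10 (that time alone), and 0 to 8 with a library left out (8 without replicate 2 of BRD+CHIR at 6 h). At 24 h the count of 14 became 4 (16 libraries), 154 (DESeq2), 0 (limma-voom), 0 (that time alone), 6 (genes with counts in all 8 libraries), 8 (symbol groups summed) and 17 (without genes at 0 in 1 replicate and at least 50 counts in the other, all 14 among them), and 5 to 40 with a library left out, with 5 without either CHIR replicate of 6 h and 40 without replicate 2 of CHIR at 24 h. Each of the 8 libraries, left out, moved it by over 1.5 times. For the difference between times the count of 7 became 0 (16 libraries), 30 (DESeq2), 1 (limma-voom), 2 (genes with counts in all 8 libraries) and 3 (symbol groups summed), and 1 to 24 with a library left out (1 without replicate 1 of BRD+CHIR at 6 h or at 24 h, 24 without replicate 2 of CHIR at 24 h). Against AA+CHIR the 477 became 995 (DESeq2) and 126 (time block on 8 libraries, 114 of them shared), and 275 to 459 with a library left out (275 to 288 without replicate 1 of AA+CHIR or either replicate of BRD+CHIR at 6 h). Against JNJ+CHIR the 34 became 154 (DESeq2) and 14 (time block on 8 libraries), and 18 to 76 with a library left out (18 without replicate 1 of JNJ+CHIR at 6 h, 21 without replicate 2 of BRD+CHIR at 6 h, 76 without replicate 1 of JNJ+CHIR at 24 h). The cause of these shifts was not tested.

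Replicate numbers showed no sign of pairing, as deviations of same-numbered libraries of a time correlated at -0.05 to 0.04. The labels do not say whether same-numbered libraries belong together. These correlations rest on 2 libraries a group and cannot settle it. With a replicate block the count was 0 with times combined, 0 at 6 h, 6 at 24 h (3 of them shared), 7 between times, 446 against AA+CHIR and 31 against JNJ+CHIR.

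Of 588 log2 changes of 31 named genes, 574 kept their direction and none passed the threshold. GSC became 0.85 with 4 group means, 0.85 with 16 libraries and 0.48 with DESeq2, FOXA2 -0.0016 and AXIN2 -0.023 with limma-voom. With a library left out, LEFTY2 ran from -0.60 to 0.28, GSC from -0.14 to 0.087, AXIN2 from -0.073 to 0.088, FOXA2 from -0.052 to 0.33 and EOMES from -0.12 to 0.025.

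Precision differs by time. The common biological coefficient of variation was 0.127 in the 6 h libraries and 0.377 in the 24 h libraries fitted alone. It was 0.292 in the fit with times combined and 0.287 in the fit with 4 group means. Changes at 6 h are thus tested against a spread that the 24 h libraries widen. Changes at 24 h are tested against a spread that the 6 h libraries narrow, which favours calls at 24 h. With 2 libraries a group, changes of weakly expressed genes are not bounded.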

Other observations

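ELAPOR1 and TUBD1, which limma-voom called with the times combined, varied in the same direction between the replicates of each treatment at 6 h. ELAPOR1 had 560 and 1199 CPM in BRD+CHIR, 649 and 1854 CPM in AA+CHIR, 2330 and 1421 CPM in JNJ+CHIR, 2745 and 1863 CPM in CHIR and 1042 and 4226 CPM in untreated cells. TUBD1 had 239 and 578 CPM in BRD+CHIR, 259 and 932 CPM in AA+CHIR, 1197 and 673 CPM in JNJ+CHIR, 1384 and 951 CPM in CHIR and 451 and 2135 CPM in untreated cells. Within the untreated pair the log2 range was 2.02 for ELAPOR1 and 2.24 for TUBD1. At 24 h TUBD1 lay between 21.4 and 39.9 CPM in all 8 libraries of the 4 treatments, and ELAPOR1 between 30.5 and 48.3 CPM.

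MTRNR2L12, a nuclear copy of a mitochondrial rRNA segment, was likewise lowest in the first BRD+CHIR library of 6 h (3056 CPM) and highest in the first CHIR library of 6 h (6828 CPM), while at 24 h it lay between 1597 and 1930 CPM in the 4 treatments. Whether this variation has a technical source was not tested.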
